A study of Homo sapiens with 18 samples.

Results

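The comparison is between 16D prostate cancer cells that carried a guide RNA against OGDHL and had been kept in enzalutamide, and control cells that had never met the drug. It uses 6 of the 18 RNA sequencing libraries of the series, chosen by their labels alone: 3 of cells with OGDHL guide 1 (sgOGDHL_1) after 6 weeks in 10 µM enzalutamide, and 3 of cells with the AAVS control guide (sgAAVS) after 6 weeks in DMSO vehicle. A reference group of 3 libraries, the AAVS control guide after 6 weeks in 10 µM enzalutamide, gives the drug change in cells without an OGDHL guide. Every group, the control included, had received lentivirus with Cas9 and its guide. 16D is a castration-resistant line derived from LNCaP, the AAVS guide cuts a safe-harbour site in PPP1R12C, and the labels do not say whether any infected population was 1 clone or many. The comparison asks which genes stood at, beyond or still away from the untreated level in drug-treated guide 1 cells.

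Androgens switch on secretory genes of the prostate such as KLK3, which encodes prostate-specific antigen, and hold down another set of genes. Enzalutamide is an antiandrogen, so androgen-induced genes fall in treated cells and androgen-repressed genes rise. OGDHL encodes a relative of OGDH, the 2-oxoglutarate dehydrogenase subunit that turns 2-oxoglutarate into succinyl-CoA in the TCA cycle.

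Levels are TPM, a gene's share of a library's transcripts after correction for gene length, rescaled to the same total once mitochondrially encoded and unnamed rows were left out. Differences were taken between means of log2(TPM + 1), a scale on which low genes appear to change less than they did. A gene was called at an adjusted p under 0.05 by limma (Benjamini-Hochberg, over 15075 genes). The difference of drug-treated guide 1 cells from untreated control cells is called the distance from the untreated level, and that of drug-treated from untreated control cells the drug change. These share the 3 untreated libraries, so their values are given side by side. The labels do not say whether the 3 libraries of a group are separate cultures; a p-value here speaks only of the spread between libraries, and that spread may be technical. Sequencing depth cannot be read from TPM and is unknown. Libraries of 1 group correlated at 0.994 to 0.996 over genes and libraries of different groups at 0.964 to 0.986. Mitochondrially encoded transcripts took 57.7% to 60.4% of the deposited TPM in drug-treated guide 1 libraries, 53.6% to 55.4% in untreated and 50.3% to 60.2% in drug-treated control libraries. On the deposited scale, with those transcripts kept, the median gene of the first comparison moved from 0.04 to -0.11, and the differences below are relative to the rescaled total.

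OGDHL, on chromosome 10 (GRCh38, chr10:49734643-49762379, minus strand), stood at 5.61, 5.73 and 5.50 TPM in untreated control cells and at 3.07, 3.27 and 2.79 TPM in drug-treated guide 1 cells. It stood at 9.20, 9.81 and 9.23 TPM in drug-treated control cells, above both other groups, and the 3 groups did not overlap. The distance from the untreated level was -0.71 (SE 0.05, adjusted p = 7.6e-06 by limma), and the drug change was 0.66. A Cas9 cut need not lower the amount of transcript, so the level is a check of the labels and not of the protein. OGDH ran from 26.8 to 28.3 TPM in drug-treated guide 1 cells and from 28.2 to 29.4 TPM in untreated control cells, and did not pass the test (-0.05, adjusted p = 0.24 by limma). PPP1R12C, the gene with the control guide's site, differed by -0.07 (adjusted p = 0.081 by limma).

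Most genes that the drug changed in control cells stood nearer to the untreated level in drug-treated guide 1 cells, and few were at it. Of the 15075 genes, 8389 (55.6%) differed from untreated control cells, 4845 of them (32.1%) higher and 3544 (23.5%) lower, and 9585 (63.6%) had no overlap between the libraries of the groups. At least 2-fold differences were few: 417 genes (2.77%), 200 higher (1.33%) and 217 lower (1.44%), against 792 (5.25%) for the drug in control cells, where 9310 genes (61.8%) passed the test. On the deposited scale 4303 genes differed, 890 higher and 3413 lower, so that the share higher was 20.7% in place of 57.8%. The same change of scale took the share higher from 55.4% to 38.1% for the drug change in control cells and from 49.4% to 26% between the drug-treated groups. For 156 of the 200 higher genes and 174 of the 217 lower genes the drug had also changed control cells at least 2-fold the same way.

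The 792 genes that the drug changed at least 2-fold in control cells (423 raised, 2.81% of all genes, and 369 lowered, 2.45%) were sorted by their distance from the untreated level. A gene was called back where the 95% interval of that distance lay within 0.5 (log2) of 0, still away where it passed the test with an interval wholly beyond 0.5 on the drug's side, and past where the interval lay beyond 0.5 on the opposite side. By these limits 78 genes (9.85%) were back, 39 raised and 39 lowered by the drug, 541 (68.3%) were still away and 5 (0.631%) were past, with 168 (21.2%) in between. The median gene kept 62.6% of its drug change, with quartiles of 43.7% and 81.3%; the median was 59.9% for raised and 69.8% for lowered genes. Between the drug-treated groups, 7229 genes (48%) differed, and 624 of the 792 differed against the direction of their drug change. The 792 were chosen by a large change in the same drug-treated control libraries, which favours differences in that direction. Of the 541 still-away genes, 398 (73.6%) lay between the untreated and drug-treated control levels and differed from both, 107 (19.8%) did not pass the test against drug-treated control cells, and 36 (6.65%) lay further from untreated cells than drug-treated control cells did. Which genes were back depended on the scale. Of the 78, 22 were also back on the deposited scale, 24 with a pseudocount of 5 in place of 1, and 49 with a pseudocount of 0.1.

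**Figure D1:**
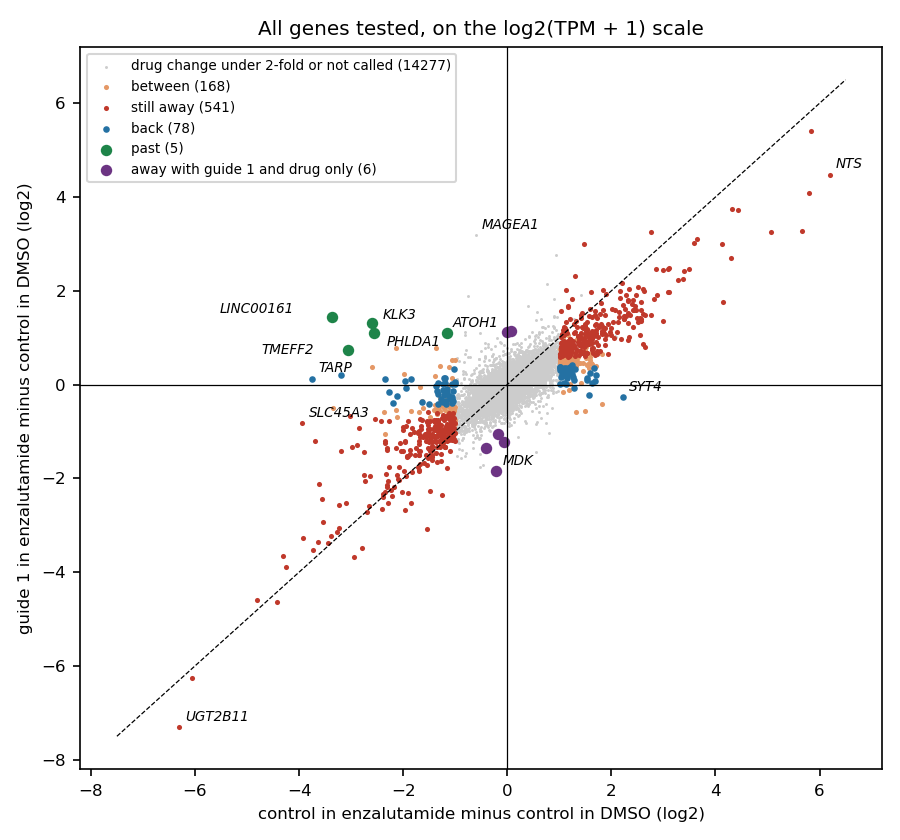
Each point is 1 of the 15075 genes. The horizontal axis is the drug change in control cells and the vertical axis the distance of drug-treated guide 1 cells from the untreated level, both log2 differences from untreated control cells, so the axes share those 3 libraries. Points on the dashed line kept the whole drug change and points on the horizontal line were at the untreated level. Most of the 541 still-away genes lie between the dashed and horizontal lines, and the 5 past genes lie in the upper left.

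The genes that had gone past the untreated level were KLK3, LINC00161, PHLDA1, TMEFF2 and ATOH1, all lowered by the drug in control cells; ATOH1 is named, although under the 5 TPM needed for naming, because the count is 5. KLK3, LINC00161 and PHLDA1 met the limits under every alternative run, while TMEFF2 and ATOH1 did not on the deposited scale or with a pseudocount of 5. KLK3 (chr19:50854915-50860764, plus strand) stood at 964, 1004 and 1004 TPM in untreated control cells, at 164, 168 and 157 TPM in drug-treated control cells, and at 2575, 2487 and 2368 TPM in drug-treated guide 1 cells. Every drug-treated guide 1 library was above every untreated library, and every drug-treated control library was below both. The means were 991 ± 22.8, 163 ± 5.61 and 2477 ± 104 TPM (SD, n = 3 each), which gives a distance from the untreated level of 1.32 (SE 0.04, adjusted p = 6.5e-08 by limma) against a drug change of -2.60.

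KLK3 and KLK2 are neighbouring kallikrein genes whose start regions are near copies of each other. The 250 bases before the RefSeq start of each gene (GRCh38.p14, plus strand, chr19:50854665-50854914 for KLK3 and chr19:50873189-50873438 for KLK2) are printed for that reason. The KLK2 window lies inside the longer span that GENCODE gives KLK2. Capitals mark AGAACA, a hexamer of the androgen response element, searched on both strands (AGAACA and TGTTCT).

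KLK3: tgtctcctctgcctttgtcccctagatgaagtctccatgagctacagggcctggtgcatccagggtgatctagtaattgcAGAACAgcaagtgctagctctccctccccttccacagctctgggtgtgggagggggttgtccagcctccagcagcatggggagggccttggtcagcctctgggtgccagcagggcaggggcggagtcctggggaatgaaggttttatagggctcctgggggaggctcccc

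KLK2: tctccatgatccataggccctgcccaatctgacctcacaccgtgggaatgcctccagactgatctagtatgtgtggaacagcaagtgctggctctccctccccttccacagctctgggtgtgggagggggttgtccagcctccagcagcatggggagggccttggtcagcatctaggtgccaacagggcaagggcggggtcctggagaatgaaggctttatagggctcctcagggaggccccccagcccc

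The hexamer occurred 1 time in the KLK3 window, at base -170 from the start, and 0 times in that of KLK2. The 15 bases of KLK3 that begin with it align in KLK2 with the single substitution A1G, counted from 1 at the first base of the hexamer. Of the 9928 tested genes with a RefSeq window, 7.28% held the hexamer, as did 12.4% of all 27305 windows, 1 of 26 androgen-induced genes and 2 of the 5 past genes. Among drug-lowered genes it was in 0 of 28 that were back, 20 of 184 still away (10.9%) and 3 of 33 in between (9.09%). Among drug-raised genes it was in 4 of 33 back (12.1%), 9 of 192 still away (4.69%) and 8 of 60 in between (13.3%). These are exact matches of letters and not mapped binding sites, so a site with a single changed base is not counted. Whether the sequences bear on the levels was not tested.

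KLK2, the other abundant kallikrein, was at 88.0, 93.2 and 93.4 TPM in untreated control cells, 22.0, 24.8 and 24.1 TPM in drug-treated control cells and 52.6, 54.5 and 52.1 TPM in drug-treated guide 1 cells. It lay between the control groups without overlapping either one, at 58% of the untreated mean (distance -0.77, adjusted p = 4.1e-06 by limma). KLK15, a less abundant member of the cluster named after its values were seen, kept more of its fall, with 3.02, 2.66 and 2.64 TPM against 6.36 to 6.65 TPM untreated and 1.16 to 1.20 TPM in drug-treated control cells.

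LINC00161, a non-coding RNA gene on chromosome 21, showed the KLK3 pattern from a deeper fall. It stood at 22.2, 22.1 and 23.7 TPM untreated, 1.59, 1.23 and 1.07 TPM in drug-treated control cells, and 65.6, 58.3 and 66.4 TPM in drug-treated guide 1 cells (distance 1.44, SE 0.08, adjusted p = 3.6e-06 by limma). Its window (GRCh38.p14, chr21:28539068-28539317, plus strand), shown because it is the other past gene that holds the hexamer, has it at base -81.

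LINC00161: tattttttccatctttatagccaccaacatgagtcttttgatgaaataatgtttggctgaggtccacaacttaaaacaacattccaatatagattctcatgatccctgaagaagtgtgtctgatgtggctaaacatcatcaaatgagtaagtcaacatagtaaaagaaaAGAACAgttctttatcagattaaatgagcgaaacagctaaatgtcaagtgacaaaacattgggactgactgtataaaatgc

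PHLDA1, a pleckstrin homology domain protein, was at 16.3, 17.6 and 15.7 TPM untreated, 1.95, 1.97 and 2.02 TPM in drug-treated control cells and 37.8, 34.9 and 36.3 TPM in drug-treated guide 1 cells. TMEFF2, a transmembrane protein of prostate and brain, was at 7.51, 7.68 and 7.52 TPM untreated, at 0.0532 TPM or below in all 3 drug-treated control libraries, and at 13.8, 13.2 and 12.8 TPM in drug-treated guide 1 cells. Both genes therefore went from the lowest level of the 3 groups in drug-treated control cells to the highest in drug-treated guide 1 cells, with no overlap; the distances were 1.09 for PHLDA1 and 0.74 for TMEFF2 (adjusted p = 5.1e-07 and 9.1e-07 by limma). ATOH1, a neural transcription factor, was at 1.32 ± 0.08 TPM untreated and 3.95 ± 0.14 TPM in drug-treated guide 1 cells (SD, n = 3 each), and its drug-treated control libraries were listed at 0 to 0.0560 TPM.

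**Figure D2:**
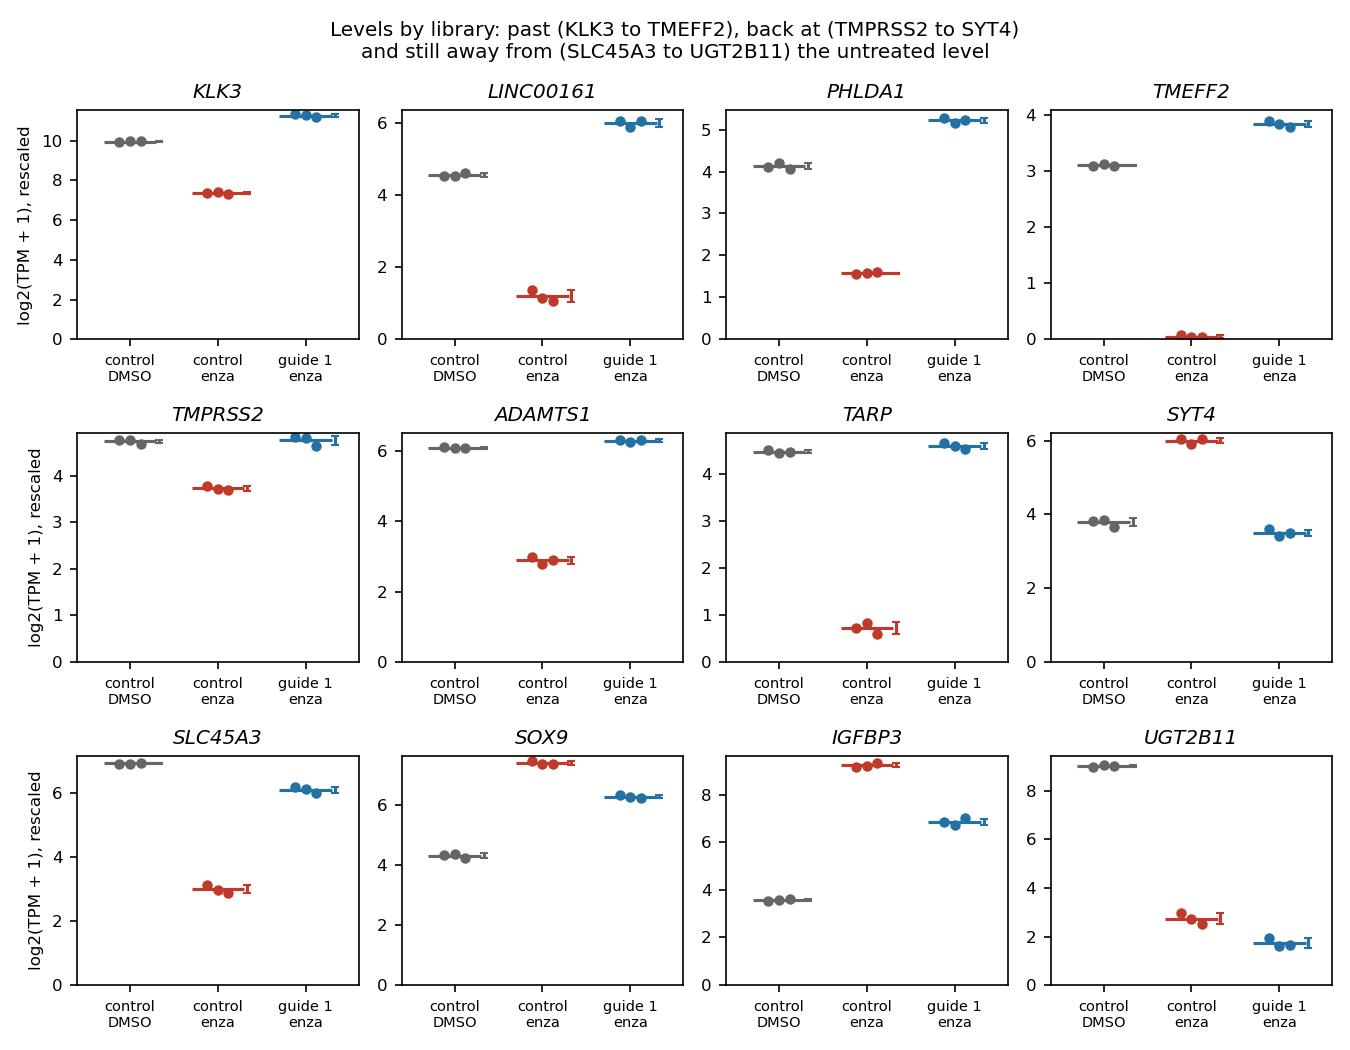
Levels of 12 genes in each library, as log2(TPM + 1) on an axis that starts at 0. Dots are libraries, horizontal bars are means and the bar at the right of each group is 1 SD (n = 3). The top row holds genes past the untreated level, with KLK3 at 1.32 and LINC00161 at 1.44 above it. The middle row holds genes back at that level, and the bottom row holds genes still away.

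The 39 drug-lowered genes that were back had a median drug change of -1.23, against -1.48 for the 261 drug-lowered genes still away. TMPRSS2, an androgen-induced membrane protease, stood at 26.0, 26.0 and 24.8 TPM untreated, 12.8, 12.2 and 11.8 TPM in drug-treated control cells and 27.3, 26.8 and 24.0 TPM in drug-treated guide 1 cells. The guide 1 libraries straddled the untreated ones, and the distance was 0.02 with a 95% interval of -0.09 to 0.14 (adjusted p = 0.73 by limma). TARP, a transcript of the T cell receptor gamma locus made in prostate cells, stood at 21.2 ± 0.44 TPM untreated, 0.656 ± 0.14 TPM in drug-treated control cells and 23.3 ± 1.05 TPM in drug-treated guide 1 cells (SD, n = 3 each). ADAMTS1, a secreted metalloprotease, went from 67.3 ± 1.14 to 6.44 ± 0.52 TPM with the drug and stood at 77.7 ± 1.99 TPM with guide 1 (SD, n = 3 each); it was close enough to be called back although it passed the test above the untreated level (0.20, adjusted p = 0.0076 by limma). GUCY1A1, a subunit of the nitric oxide receptor, and KRT19, a keratin, overlapped with untreated cells (distances 0.13 and 0.08, adjusted p = 0.087 and 0.36 by limma). C1orf116 and PMEPA1, both androgen-induced, were within the limits but below untreated cells, by -0.40 and -0.41. MPC2, a subunit of the carrier that takes pyruvate into mitochondria, had fallen from 127 to 53.5 TPM with the drug and stood at 117 TPM with guide 1, and SLC1A5, the main glutamine carrier, at 87.3 TPM against 113 TPM untreated and 47.3 TPM in drug-treated control cells.

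The drug-raised genes that were back included SYT4, a synaptotagmin of secretory vesicles and a neuroendocrine marker. It stood at 13.3, 13.5 and 11.6 TPM untreated, 64.6, 59.4 and 64.9 TPM in drug-treated control cells and 11.1, 9.75 and 10.4 TPM in drug-treated guide 1 cells, all 3 of which were below the lowest untreated library (distance -0.27, adjusted p = 0.0078 by limma). ID2, an inhibitor of helix-loop-helix transcription factors, stood at 52.8, 46.1 and 50.8 TPM with guide 1, across the untreated range of 46.7 to 47.6 TPM, after 146 to 158 TPM in drug-treated control cells. ADD3, a cytoskeletal adducin, also overlapped with untreated cells, while EFNB2, an ephrin ligand, stayed slightly above them (5.06 to 5.42 TPM against 4.32 to 4.47 TPM). NR3C1, the glucocorticoid receptor, met the limits on this scale at levels that are low in every group, under the 5 TPM needed for naming. It was at 0.00607 ± 0.00085 TPM untreated, 2.18 ± 0.15 TPM in drug-treated control cells and 0.282 ± 0.0185 TPM with guide 1 (SD, n = 3 each), and it passed the test above the untreated level (0.35, adjusted p = 0.00039 by limma). VCX2 and ASS1P13, also in this class, have near-identical copies, and TARP overlaps other genes of its locus, so their values are uncertain.

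Androgen-induced genes were mostly still below the untreated level, and nearly all were above the drug-treated control level. Of 34 such genes tested, 23 were lower than in untreated cells and 8 higher (median -0.57, against 0.04 for all genes), where the drug alone had 31 lower and 1 higher in control cells (median -1.16; 27.6% and 34.2% of all genes were lower and higher). Against drug-treated control cells, 30 were higher and 3 lower (median 0.69; 23.7% and 24.2% of all genes). The counts against untreated cells were 22 lower and 4 higher of 32 on the deposited scale. The 23 members that the drug changed at least 2-fold kept a median of 41.1% of that change: 5 were back (TMPRSS2, PMEPA1, CENPN, C1orf116 and HERC3), 15 still away, 1 past and 2 in between.

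Among the members above untreated cells were KLK3, STEAP2, STEAP1, EAF2, HERC3, KLK4 and TIPARP. STEAP1, a metalloreductase of the prostate cell surface named after its values were seen, was at 164 to 168 TPM untreated, 122 to 123 TPM in drug-treated control cells and 245 to 251 TPM with guide 1, in the same order as KLK3. SLC45A3, a prostate sugar carrier, had the largest drug change of the list and stood at 121, 119 and 123 TPM untreated, 7.72, 6.81 and 6.40 TPM in drug-treated control cells and 71.6, 68.7 and 63.2 TPM with guide 1. It was thus far above the drug-treated control level and below the untreated one (-0.83, adjusted p = 1.9e-05 by limma). FKBP5, an immunophilin chaperone, was at 46.5% of its untreated mean and ACSL3, a fatty acid activating enzyme, at 25.2%.

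MAF was below drug-treated control cells and STEAP4 did not pass the test against them. MAF, a basic leucine zipper factor, was at 47.0, 46.9 and 44.9 TPM untreated, 5.25, 4.96 and 5.17 TPM in drug-treated control cells and 2.77, 2.58 and 2.77 TPM with guide 1, lower in each guide 1 library than in any other. STEAP4, a metalloreductase also under 5 TPM, was at 3.42 ± 0.43 TPM untreated and at 0.0414 ± 0.00538 and 0.0706 ± 0.00465 TPM in the drug-treated control and guide 1 groups (SD, n = 3 each). The guide 1 libraries were the higher of the drug-treated ones, by 0.04 on the log2 scale (adjusted p = 0.67 by limma).

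**Figure D3:**
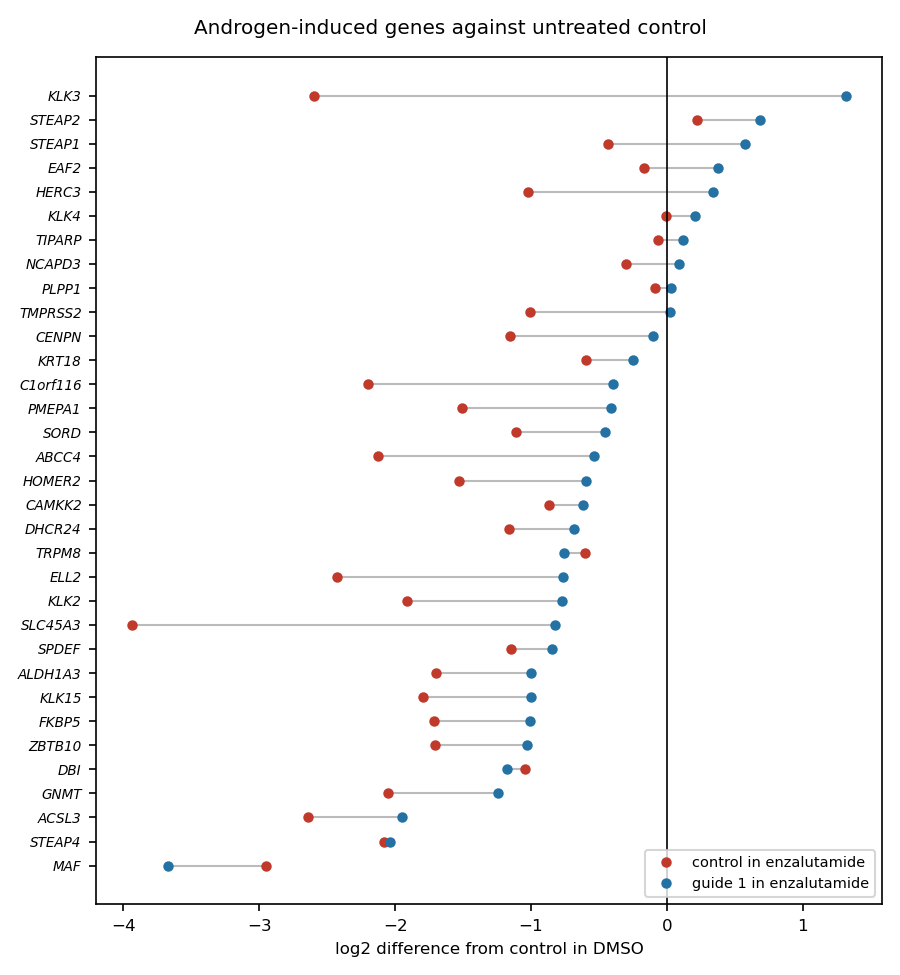
Androgen-induced genes (33 of the 34 tested), each with its log2 difference from untreated control cells in drug-treated control cells (red) and in drug-treated guide 1 cells (blue), ordered by the blue value. The vertical line is the untreated level; KLK3 lies furthest above it, at 1.32, and MAF lies furthest below it.

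All 9 tested members of the androgen-repressed list were still away, as were 68.3% of all genes that the drug changed at least 2-fold. With guide 1, 6 were higher and 3 lower than in untreated cells, as with the drug alone. Of all genes, 32.1% were higher and 23.5% lower than in untreated cells. CAMK2N1, an inhibitor of calmodulin kinase, stood at 9.94, 11.2 and 9.84 TPM untreated, 117, 104 and 106 TPM in drug-treated control cells and 54.4, 49.1 and 51.8 TPM with guide 1, between the control groups and apart from both (distance 2.22, adjusted p = 7.0e-08 by limma). The kappa opioid receptor gene OPRK1 kept 32.9% of its rise, and CAMK2N1 67.8%. The 3 lower members were UGT2B15, UGT2B17 and BCHE, the first pair being androgen-inactivating glucuronosyltransferases. These 3 had fallen with the drug in control cells too, against the direction of the other 6.

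The largest remaining rises, apart from the pseudogenes AIDAP1, KNOP1P3 and AIDAP2 (3.75, 3.25 and 3.10), were ADRA2A, NTS, LRRN1, AIDA, IGFBP3 and TRIB2. ADRA2A, an alpha-2 adrenergic receptor, stood at 2.48, 2.13 and 2.23 TPM untreated, 197, 181 and 177 TPM in drug-treated control cells and 140, 137 and 135 TPM with guide 1, and kept 92.7% of its drug change (distance 5.40, SE 0.05, adjusted p = 4.2e-10 by limma). NTS, the neuropeptide neurotensin, was listed at 0.0809 TPM or below untreated, at 77.3, 79.3 and 74.6 TPM in drug-treated control cells and at 23.6, 20.8 and 23.8 TPM with guide 1. IGFBP3, a carrier of insulin-like growth factors, stood at 10.6, 10.8 and 11.3 TPM untreated, 566, 593 and 641 TPM in drug-treated control cells and 113, 104 and 127 TPM with guide 1. All 3 genes thus lay between the control groups with no overlap. SOX9, a lineage transcription factor, was at 18.9 ± 1.04, 169 ± 7.43 and 76.9 ± 2.95 TPM in the same order (SD, n = 3 each). ID1, a relative of ID2, kept 92% of its rise, at 153 to 161 TPM against 36.5 to 40.5 TPM untreated and 171 to 184 TPM in drug-treated control cells. AIDA (22.5 ± 0.94 TPM untreated and 312 ± 12.5 TPM with guide 1; SD, n = 3 each) has near-identical pseudogene copies, AIDAP1 among them, and is uncertain.

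The largest remaining falls were those of the UGT2B glucuronosyltransferases, which inactivate steroids and whose close similarity makes the split of reads between them uncertain. UGT2B11 stood at 514, 533 and 522 TPM untreated, 6.81, 5.55 and 4.70 TPM in drug-treated control cells and 2.85, 2.02 and 2.11 TPM with guide 1 (distance -7.31, SE 0.12, adjusted p = 4.2e-09 by limma), so every guide 1 library was below the lowest drug-treated control library. UGT2B28 stood at 111 to 119 TPM untreated and 0.415 to 0.743 TPM with guide 1 and did not pass the test against drug-treated control cells (adjusted p = 0.098 by limma). DUSP4, a phosphatase that dampens ERK signalling, was at 131, 133 and 135 TPM untreated and at 3.52 to 4.31 and 4.34 to 4.79 TPM in the drug-treated control and guide 1 groups. RGS2, a regulator of G proteins, HES6, a Notch pathway repressor, and S100P, a calcium-binding protein, also stayed more than 3 below the untreated level on the log2 scale (-3.54, -3.36 and -3.65).

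In 36 still-away genes guide 1 went with a larger displacement than the drug alone. SNCG, a synuclein, stood at 11.7, 10.6 and 10.8 TPM untreated, 3.49, 3.66 and 2.74 TPM in drug-treated control cells and 1.52, 1.76 and 1.25 TPM with guide 1, in 3 separate steps (distance -2.26, drug change -1.49, adjusted p = 7.1e-07 for the distance by limma). VIM, the filament protein vimentin, also ended lowest with guide 1. On the rising side, SEMA6A, a semaphorin, was at 0.918 ± 0.038 TPM untreated, 3.56 ± 0.0943 TPM in drug-treated control cells and 5.75 ± 0.215 TPM with guide 1 (SD, n = 3 each).

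Away from the untreated level in drug-treated guide 1 cells, with the drug change in control cells within 0.5 of 0, were 6 of the 15075 genes (0.0398%). This set is called guide 1 and drug only. Guide 1 libraries kept in DMSO had no part in it, so whether these differences need the drug was not tested. The small drug change still passed the test for PARP10, PAX1 and MDK (adjusted p = 4.2e-05, 0.0033 and 0.045 by limma). MDK, the growth factor midkine, stood at 16.7, 17.1 and 18.4 TPM untreated, 16.8, 14.5 and 13.5 TPM in drug-treated control cells and 4.11, 4.38 and 3.82 TPM with guide 1, apart from the other groups (distance -1.85, SE 0.08, adjusted p = 5.8e-07 by limma). FJX1, PARP10 and PAX1 were also lower (-1.22, -1.34 and -1.04). ARG2, the mitochondrial arginase, stood at 24.3 to 25.6 TPM untreated, 25.8 to 26.7 TPM in drug-treated control cells and 57.5, 56.4 and 54.1 TPM with guide 1, more than doubled in each library against every control library; OTULINL rose by 1.12. PARP10 was not in this set with either other pseudocount or on any of the 3 other scales, ARG2 and OTULINL were not on the deposited scale, and OTULINL, FJX1 and PAX1 were not with a pseudocount of 5.

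Some genes moved the opposite way with the drug and ended beyond the untreated level without meeting the 2-fold limit for the drug change; these were picked after their values were seen, apart from MAGEA1 and FN1. MAGEA1, a cancer-testis antigen on the X chromosome, stood at 8.12, 8.59 and 7.59 TPM untreated, 5.27, 5.12 and 4.53 TPM in drug-treated control cells and 82.9, 80.3 and 81.0 TPM with guide 1 (distance 3.18, SE 0.06, adjusted p = 4.6e-09 by limma). AADAT, an aminotransferase that uses 2-oxoglutarate and makes kynurenic acid, was at 16.2, 17.1 and 16.7 TPM untreated, 9.41 to 9.57 TPM in drug-treated control cells and 64.6, 62.9 and 66.5 TPM with guide 1. MCCC2, a subunit of the leucine-degrading methylcrotonyl-CoA carboxylase, was at 23.6 ± 0.66, 13.0 ± 0.21 and 52.6 ± 2.37 TPM in the same order (SD, n = 3 each). In all 3 genes the guide 1 libraries were the highest and the drug-treated control libraries the lowest. FN1, the matrix protein fibronectin, and SPON2, a secreted matrix protein, ran the other way: FN1 was at 33.6 to 36.0 TPM untreated, 54.3 to 63.1 TPM in drug-treated control cells and 18.3 to 20.8 TPM with guide 1, and SPON2 at 26.4 to 27.0, 47.0 to 48.3 and 11.5 to 13.4 TPM.

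Most cell cycle genes stood higher in drug-treated guide 1 than in drug-treated control cells, with medians close to the untreated level, where the drug alone had lowered them. Over all genes, 32.1% were higher and 23.5% lower than in untreated cells, 34.2% and 27.6% for the drug in control cells, and 23.7% and 24.2% against drug-treated control cells. Of 30 genes of G2/M and mitosis, 11 were higher and 5 lower than in untreated cells (median 0.04), against 1 higher and 26 lower for the drug in control cells (median -0.26), and 26 were higher and 0 lower than in drug-treated control cells (median 0.34). The count of G2/M genes above untreated cells is near the share over all genes. Of 30 genes of DNA replication and G1/S, 20 were higher and 3 lower than in untreated cells (median 0.14), against 3 higher and 20 lower for the drug in control cells, and 27 were higher and 1 lower than in drug-treated control cells (median 0.30). CCNA2, the S and G2 cyclin, stood at 81.7, 84.4 and 78.8 TPM untreated, 51.2, 49.0 and 55.9 TPM in drug-treated control cells and 83.8, 77.4 and 85.1 TPM with guide 1, across the untreated range. HMMR, a spindle protein, and RFC3, a clamp loader subunit, also overlapped with untreated cells (adjusted p = 0.23 and 0.61 by limma). CCNE2, the S phase cyclin, stood above both control groups at 24.8, 22.1 and 23.4 TPM, against 14.6 to 15.9 and 19.2 to 20.7 TPM. PLK1, a mitotic kinase, remained below untreated cells at 68.7 to 73.7 against 82.1 to 84.4 TPM. The rises over untreated cells depended on the scale: with TPM as deposited, 0 of the G2/M genes were higher and 5 lower (median -0.13), and 2 of 27 replication genes were higher and 2 lower (median -0.02), while 10 and 11 were still higher and 0 lower than in drug-treated control cells.

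**Figure D4:**
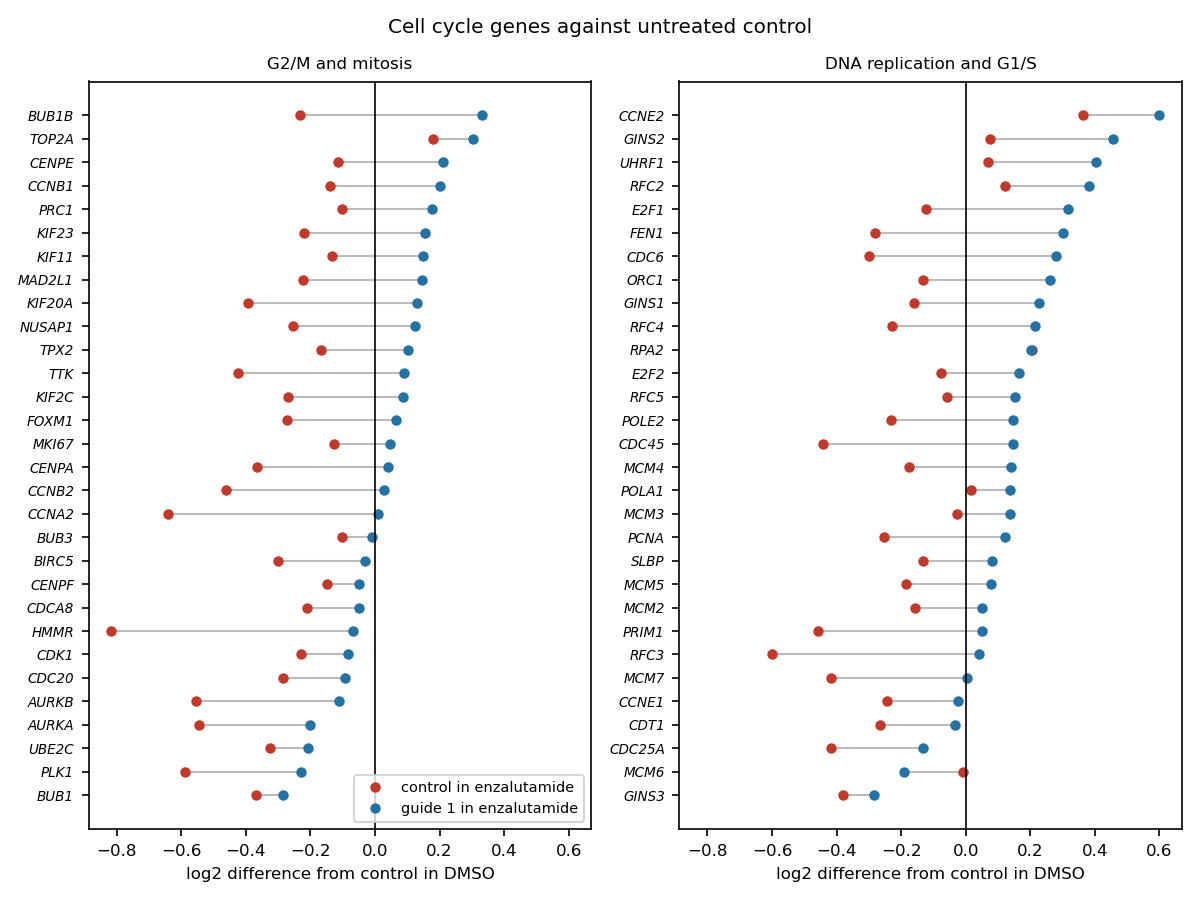
The 30 G2/M genes (left) and 30 DNA replication genes (right), with the log2 difference from untreated control cells in drug-treated control cells (red) and drug-treated guide 1 cells (blue). Nearly all red points lie left of the blue ones, and the blue points lie on both sides of the vertical line that marks the untreated level.

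Most lipid synthesis genes stayed below the untreated level. Of 24 cholesterol synthesis genes, 20 were lower and 2 higher than in untreated cells (median -0.53), and of 17 fatty acid synthesis genes, 15 were lower and 1 higher (median -0.90), where 23.5% of all genes were lower and 32.1% higher; for the drug in control cells the medians were -0.68 and -1.09. Against drug-treated control cells, 14 of the cholesterol genes were higher and 2 lower (median 0.16), and 8 of the fatty acid genes were higher and 3 lower (median 0.04), beside 23.7% and 24.2% of all genes; on the deposited scale 4 cholesterol genes were higher and 1 lower. FASN, the fatty acid synthase, stood at 1757, 1768 and 1791 TPM untreated, 592, 496 and 529 TPM in drug-treated control cells and 536, 529 and 504 TPM with guide 1. The drug-treated groups overlapped and did not pass the test against each other (-0.04, adjusted p = 0.61 by limma). INSIG1, which restrains sterol synthesis, and FDFT1, squalene synthase, were at 34.5% and 34% of their untreated means, somewhat above the drug-treated control levels of 26.3% and 25.7%. Hypoxia response genes were also low, 14 of 17 lower and 1 higher (median -0.50), with NDRG1 at 4.69 ± 0.11 TPM against 31.9 ± 5.47 TPM untreated (SD, n = 3 each).

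Lists of mitochondrial metabolism had median distances from untreated cells close to 0, with single members further away. Over all genes, 23.5% were lower and 32.1% higher than in untreated cells, and 23.7% were higher and 24.2% lower than in drug-treated control cells. Of 77 nuclear genes of the respiratory chain, 39 were lower and 9 higher (median -0.09), and 36 were higher and 7 lower than in drug-treated control cells (median 0.06). On the deposited scale 37 were lower and 0 higher than in untreated cells, and 1 was higher and 2 lower than in drug-treated control cells. NDUFB4, a complex I subunit, stood at 513, 512 and 521 TPM untreated, 319, 312 and 316 TPM in drug-treated control cells and 521, 493 and 488 TPM with guide 1, which overlapped with untreated cells. Of 35 TCA cycle and pyruvate entry genes, 18 were lower and 6 higher (median -0.08). Of 28 dioxygenases that consume 2-oxoglutarate, 14 were lower and 5 higher (median -0.12, against -0.02 for the drug in control cells). Against drug-treated control cells 1 was higher and 10 lower (median -0.05). EGLN1, an oxygen sensor, was the lowest against untreated cells at -0.90, close to its drug change of -0.88. PHYH, which breaks down branched fatty acids, was the highest at 0.55. LDHB, a lactate dehydrogenase subunit, and PDK3, a kinase that inhibits pyruvate dehydrogenase, rose further with guide 1 than with the drug alone (1.10 and 1.06 against drug changes of 0.60 and 0.56). GOT2, the mitochondrial aspartate aminotransferase, stood at 103 to 108 TPM against 208 to 209 TPM untreated and did not pass the test against drug-treated control cells (adjusted p = 0.59 by limma).

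The medians of amino acid and stress lists were nearer to the untreated level than the drug had left them. Of 26 targets of the stress factor ATF4 and serine synthesis genes, 13 were lower and 5 higher than in untreated cells (median -0.09), where the drug alone had 20 lower and 1 higher (median -0.34), and 17 were higher and 2 lower than in drug-treated control cells, beside 23.7% and 24.2% of all genes; on the deposited scale, with 25 tested, 11 were lower and 0 higher than in untreated cells. SLC7A5, an amino acid carrier, was at -0.24 against a drug change of -0.93, and ASNS, asparagine synthetase, at 0.19 against -0.36. Of 21 genes of the unfolded protein response, 5 were higher and 5 lower than in untreated cells, against 4 and 11 for the drug alone, where 32.1% and 23.5% of all genes were higher and lower than in untreated cells and 34.2% and 27.6% for the drug. Against drug-treated control cells 16 were higher and 3 lower, but on the deposited scale 1 was higher and 2 lower, and 0 were higher and 5 lower than in untreated cells. Of 12 antigen presentation genes, 5 were higher and 4 lower (median 0.05), where the drug alone had 10 higher and 2 lower (median 0.47). HLA-B stood at 19.4, 20.2 and 19.9 TPM untreated, 47.0, 44.1 and 42.6 TPM in drug-treated control cells and 27.5, 25.4 and 24.6 TPM with guide 1, above untreated and below drug-treated control cells in every library. On the deposited scale, with 9 of these genes tested, 1 was higher and 3 lower than in untreated cells.

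Of 18 neuroendocrine markers, 6 reached the level for testing, and 3 were higher (NTS, ENO2 and POU3F2) and 2 lower (ONECUT2 and SYT4) than in untreated cells. Of all genes, 32.1% were higher and 23.5% lower. ENO2, the neuronal enolase, stood at 13.5, 15.3 and 16.9 TPM untreated, 83.8, 85.3 and 86.6 TPM in drug-treated control cells and 48.1, 47.8 and 46.6 TPM with guide 1. CHGA, which defines neuroendocrine cells, was listed at 0.0359 TPM or below in all 9 libraries. INSM1 and NEUROD1 were at 0 in all libraries of both drug-treated groups, and NEUROD1 also in all untreated libraries. The 18 markers summed to 46.2 to 49.1 TPM untreated, 238 to 242 TPM in drug-treated control cells and 92.1 to 97.3 TPM with guide 1. The 18 luminal markers, KLK3 among them, summed to 5015 to 5155, 4250 to 4396 and 8103 to 8548 TPM in the same order. Such sums are weighted to the most abundant members, and KLK3 alone had means of 991, 163 and 2477 TPM. Of 16 luminal markers tested, 8 were higher and 5 lower than in untreated cells (median 0.13). Against drug-treated control cells 6 were higher and 7 lower (median -0.03), beside 23.7% and 24.2% of all genes. In bulk RNA, fewer cells of a kind and less RNA per cell cannot be told apart. Markers of leukocytes, fibroblasts and endothelium summed to at most 3.87, 17.9 and 1.95 TPM in any library.

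**Figure D5:**
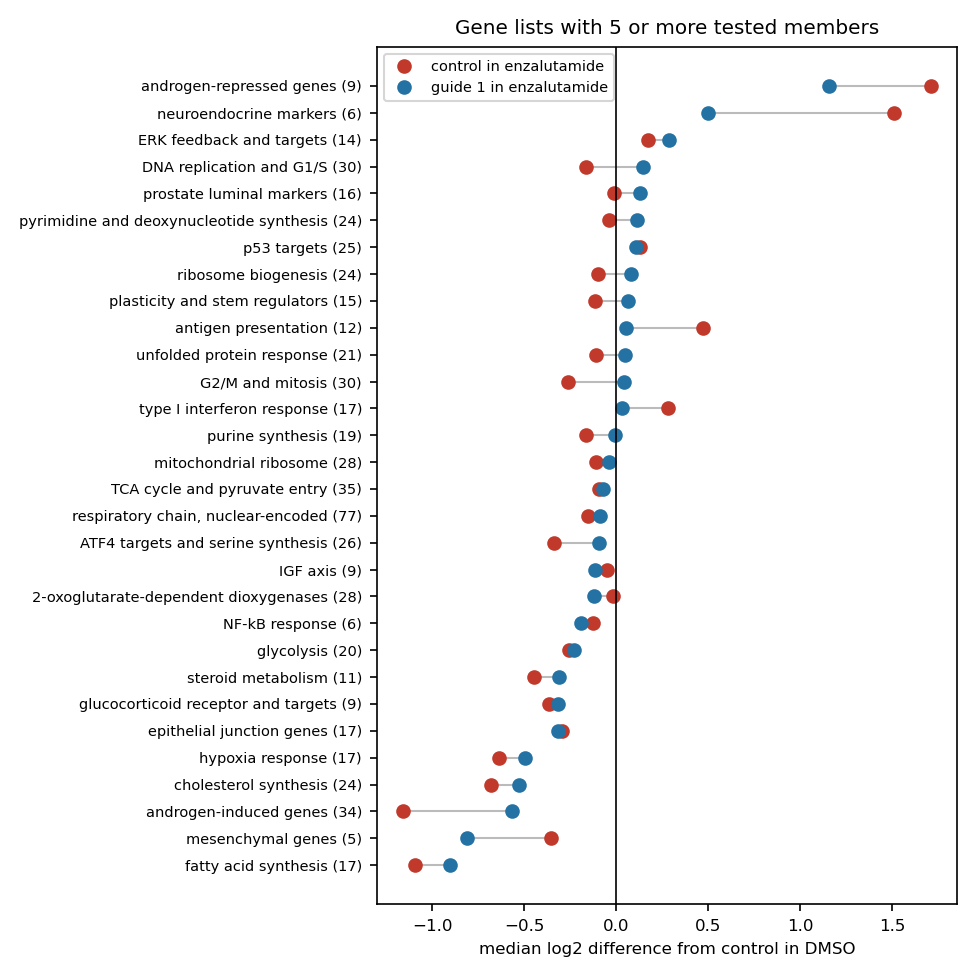
Median log2 difference from untreated control cells over the tested members of each gene list (number tested in brackets), for drug-treated control cells (red) and drug-treated guide 1 cells (blue). The androgen-induced median lies at -0.57 with guide 1 and -1.16 without, and the fatty acid synthesis medians lie close together.

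The return towards the untreated level was far smaller in the drug-treated libraries of the other OGDHL guide. In a fit of 12 libraries, with guide 2 (sgOGDHL_2) in 10 µM enzalutamide for 6 weeks as a further group, 794 genes were changed by the drug in control cells. With guide 1, 85 of them were back, 547 still away and 7 past, and with guide 2, 8 were back, 741 still away and 0 past; the median share of the drug change kept was 62.6% and 97.9%. The comparison with guide 2 was added after the data were seen. KLK3 stood at 321.5, 337.7 and 315.5 TPM in drug-treated guide 2 cells, below untreated cells and below every drug-treated guide 1 library (guide 1 less guide 2: 2.93, adjusted p = 1.8e-11 by limma). PHLDA1 was at 1.61, 1.58 and 1.55 TPM and LINC00161 at 1.22, 0.882 and 1.54 TPM with guide 2, near the drug-treated control levels. Without the drug LINC00161 stood at 137.6, 136.2 and 151.3 TPM in guide 2 cells and at 32.4, 28.3 and 26.2 TPM in guide 1 cells kept in DMSO, so its highest levels in the series were those of guide 2 cells in DMSO and not of drug-treated guide 1 cells. TMPRSS2 was at 19.1, 19.9 and 18.7 TPM, between the control groups. Of the 34 androgen-induced genes, 26 were higher and 3 lower with guide 1 than with guide 2 (25.5% and 35.2% of all genes), and all 30 G2/M genes and all 30 replication genes were higher.

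OGDHL itself stood at 5.20, 5.38 and 5.36 TPM in drug-treated guide 2 cells, which did not pass the test against untreated control cells (-0.07, adjusted p = 0.2 by limma). The drug had raised OGDHL in control cells (0.66), and every drug-treated guide 2 library was below every drug-treated control library, a difference that was not tested. In guide 2 cells kept in DMSO it stood at 7.66, 8.84 and 7.93 TPM. Under the drug it was lower with guide 1 than with guide 2 (-0.65, adjusted p = 6.7e-07 by limma). MAGEA1 was at 7.21, 7.08 and 7.16 TPM in drug-treated guide 2 cells. ARG2 was at 47.8, 46.9 and 45.4 TPM there, so its rise over untreated cells was shared by both guides (0.88 with guide 2, adjusted p = 2.2e-09 by limma). With guide 2, OTULINL and MDK also differed from untreated cells in the direction seen with guide 1, by less (0.38 and -0.61). PAX1 differed the other way (0.10), and FJX1 and PARP10 did not pass the test (-0.02 each). In cells with guide 1 kept in DMSO, KLK3 stood at 979, 1090 and 1250 TPM, MAGEA1 at 4.12, 4.20 and 3.87 TPM and OGDHL at 2.30, 2.71 and 3.75 TPM. The KLK3 and MAGEA1 levels of drug-treated guide 1 cells were thus above those of every other group in the series, while the low OGDHL level was also present in guide 1 cells without the drug.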

How the data were processed

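RNA of 16D cells with a lentiviral guide and Cas9, after 6 weeks with 10 µM enzalutamide or DMSO alone, was sequenced as stranded mRNA libraries in paired ends, per the labels' protocols. The authors deposited TPM per gene and sample; STAR and GRCh38 are named in the submitters' processing notes, while how reads were counted, and on which annotation, is not given in the sources used here. TPM is relative to a library's total, so a few abundant transcripts move all other values and the reads behind a value cannot be known.

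Of 37347 rows, 10345 without a gene name (6.79% to 8.47% of the TPM of the 9 libraries), 37 mitochondrially encoded rows and 69 rows of 3 symbols with 5 or more rows were left out, and rows were added up for 32 symbols with 2 to 4 of them, leaving 26863 symbols. Each library was rescaled to the deposited total by a factor of 2.43 to 3.14. On log2(TPM + 1), a pseudocount of 1, genes at 1 or more in at least 3 of 9 libraries (15075) were fitted with limma 3.58.1 in R 4.3.3: 3 group means, 6 residual degrees of freedom, a trended prior and Benjamini-Hochberg adjustment at 0.05. An exact permutation test of 3 against 3 libraries cannot go below 0.1 and was not used. The procedure was tested on simulated data.

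The comparison, its classes and the gene lists were chosen with earlier results of these data known. Named genes had 5 TPM or more in their highest group: the 10 and 10 of largest distance from untreated cells, the 6 and 6 of largest drug change in each class, up to 4 and 4 still-away genes by the difference between drug-treated groups in either direction, up to 8 and 8 away with guide 1 and drug only, up to 4 and 2 members of each list, and 18 set genes including OGDHL and KLK3. Members named to spell out a short count, and NR3C1 and STEAP4, could be under 5 TPM. Some are not reported here.

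Each result was computed again with a pseudocount of 0.1 or 5, without the filter or with one at 5 TPM, with TPM as deposited, median-of-ratios scaling, quantile normalization, all 18 libraries, only the 6 libraries of a comparison, a replicate block, array weights and each library left out. Gene coordinates came from GENCODE 29 and start regions from RefSeq (GRCh38.p14; 9928 of the tested genes matched). Python 3.11.15 with numpy 2.4.6, pandas 2.3.3 and matplotlib 3.10.9 prepared tables and figures.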

Additional observations from a re-analysis of the deposited data

How the results depend on the processing

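The numbers of genes that differed moved by over 1.5 times on the deposited scale and under no other alternative run, while the class counts moved with the pseudocount, the scale and the filter. With TPM as deposited, 4303, 4883 and 2592 genes differed in the comparisons of drug-treated guide 1 with untreated control cells, of the drug in control cells and of the drug-treated groups, 42 were back, 292 still away and 3 away with guide 1 and drug only (FJX1, MDK and PAX1); 12160 genes were tested there. A pseudocount of 0.1 gave 816 still away, 18 past and 17 with guide 1 and drug only, and a pseudocount of 5 gave 40 back, 205 still away and 3 past. A filter at 5 TPM gave 51 back and 358 still away among 10154 genes tested, and array weights gave 8 past; apart from the smaller number of genes tested, the cause was not tested. The number of drug-changed genes that were sorted into classes moved as well. It was 792 in the main run, 434 on the deposited scale, 1239 and 289 with pseudocounts of 0.1 and 5, and 500 with the filter at 5 TPM. Leaving out each library in turn gave 7293 to 8380, 8408 to 9405 and 6373 to 7096 genes in the 3 comparisons, 64 to 80 back, 516 to 551 still away, 5 to 7 past and 5 to 7 with guide 1 and drug only. KLK3, LINC00161 and PHLDA1 were past under every alternative run. PARP10 was not in its set under a pseudocount of 0.1 or 5, the deposited scale, median-of-ratios scaling, quantile normalization, all 18 libraries, the block and some fits with a library left out. Over the named genes, 4675 of 4782 values kept direction and call, 50 gained the call, 57 lost it and 0 reversed.

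Replicate numbers did not pair the libraries: same-number deviations from group means correlated at -0.073 to 0.128 over the 3 pairs of groups. With the replicate block, 8001, 9022 and 6732 genes differed, 72 were back, 536 still away, 6 past and 5 with guide 1 and drug only.

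TPM holds no depth, so no counting interval is given, and values under 1 TPM are the least certain.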
